A study of Mus musculus with 4 samples.

Results

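MHC class II, Ccr2 and Apoe mark, together, a set of joint monocyte-lineage cells that carry the antigen presentation machinery, the receptor of recruited monocytes and a lipid carrier of macrophages. Cells were chosen from their RNA alone, in single cells sorted from the ankle synovium of mice before and during K/BxN serum-transfer arthritis (STIA). A member had H2-Aa, H2-Ab1 and Cd74 at 0.3% or more of its gene UMIs (unique molecular identifiers, 1 per captured RNA molecule), at least 1 UMI each of Ccr2 and Aif1, at least 5 UMIs of Apoe, 0 UMIs of Flt3, and Cxcl2 under 0.3%. Of the 14451 cells kept over 4 libraries, 1713 were members (11.9%), with 120 at baseline, 1138 at peak, 285 at plateau and 170 at resolution.

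All 4 libraries came from bone marrow chimeras of genotype CD45.1 B6 --> CD45.2 B6, in which CD45.1 donor marrow was given to CD45.2 recipients whose ankles were shielded from the irradiation. Baseline mice had no treatment (day 0). STIA mice, given serum of K/BxN transgenic mice, were sampled on day 7 (peak), day 14 (plateau) and day 56 (resolution). The titles of the 3 STIA samples also carry the tag "Clo-lip", which no other label explains and which cannot be told apart from the stage. Live cells were sorted as CD45+ CD11b+ and negative for Ly6G, SiglecF, CD64, MHCII, Ly6C and CD177. RNA and surface antibodies carrying DNA tags were then counted in the same cells (CITE-seq). Each stage had 1 library and the number of mice in it was not given in the sources used here, so no test between stages was possible and the stages were compared by size alone.

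MHC class II molecules show peptides to CD4 T cells. H2-Aa and H2-Ab1 encode the chains of I-A, H2-Eb1 encodes the beta chain of I-E, Cd74 encodes the invariant chain that guards the groove, and H2-DMa and H2-DMb1 encode the exchange factor that loads the peptide. The coactivator Ciita drives these genes together through factors bound to short elements of their promoters. Classical monocytes leave the marrow through Ccr2, and in inflamed tissue many take up MHC class II, Apoe and other macrophage genes. Aif1 is a cytoskeletal protein of macrophages, and Flt3 marks conventional dendritic cells.

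The antibody tags below were the letters by which surface class II protein and the origin of each cell were read. They are the 15-base tags of the antibodies to I-A/I-E, to the donor's CD45.1 and to the recipient's CD45.2.
I-A/I-E: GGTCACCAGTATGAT
CD45.1: CCTATGGACTTGGAC
CD45.2: CACCGTCATTCAACC
The promoter fragments of 3 class II genes are shown for letters that they share. Each covers the 130 bases before the gene's start in RefSeq (build GRCm38.p6), and capitals mark TGATTGG, the reversed CCAAT letters of the Y box at which NF-Y binds.
H2-Aa (chr17:34287824-34287953, minus strand): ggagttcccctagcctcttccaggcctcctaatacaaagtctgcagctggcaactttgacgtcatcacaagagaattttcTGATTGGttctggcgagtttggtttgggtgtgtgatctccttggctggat
H2-Eb1 (chr17:34305737-34305866, plus strand): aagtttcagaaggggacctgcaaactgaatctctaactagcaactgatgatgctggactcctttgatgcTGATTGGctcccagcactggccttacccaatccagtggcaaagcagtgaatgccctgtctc
H2-DMb1 (chr17:34153061-34153190, plus strand): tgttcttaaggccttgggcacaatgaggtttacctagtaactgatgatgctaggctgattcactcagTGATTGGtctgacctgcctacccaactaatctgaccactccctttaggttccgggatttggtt
The first base of TGATTGG lay 50, 61 and 63 bases before the start of H2-Aa, H2-Eb1 and H2-DMb1. Of 5 class II genes looked up, 4 had an entry (H2-Aa, H2-Eb1, H2-DMa and H2-DMb1, but not H2-Ab1) and 3 held the letters on either strand in this window, against 5.35% of all 32851 promoters. A match is a description of letters and not of binding.

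The 4 libraries held 1071, 5941, 2828 and 4611 kept cells from baseline to resolution. Members carried a median of 11393, 8596, 7194 and 5110 gene UMIs, and all other kept cells 7505, 8135, 6707 and 4901. Pairs of libraries shared 0 to 9 cell barcodes, and no barcode was a member in both. The libraries also stood apart in ways that touch the members. Genes of neutrophils summed to 14960.1 CPM (UMIs of a gene or list per 1000000 gene UMIs) in members at baseline and 45376 in the other cells of that library. The CD45 antibodies were shallow at resolution, where 48 of 170 members had fewer than 5 CD45 UMIs. Intervals below cover counting error only.

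Members made up 11.2% of kept baseline cells (exact Clopper-Pearson 95% interval 9.38 to 13.2). The share was 19.2% of peak cells (18.2 to 20.2), 10.1% of plateau cells (8.99 to 11.2) and 3.69% of resolution cells (3.16 to 4.27). The peak library held the highest share and the resolution library the lowest, and baseline and plateau overlapped. The rule counts UMIs, so deeper cells pass it more readily. After each cell was thinned to 2000 gene UMIs, with shallower cells left out (83, 444, 422 and 572), the shares were 3.04% (2.06 to 4.31), 9.19% (8.44 to 9.98), 4.74% (3.92 to 5.66) and 1.44% (1.09 to 1.85). Peak stayed highest and resolution lowest, and the intervals of baseline and plateau still overlapped. Without thinning, fewer such cells and less RNA per cell both lower a share of this kind, and their parts were not tested.

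**Figure D1:**
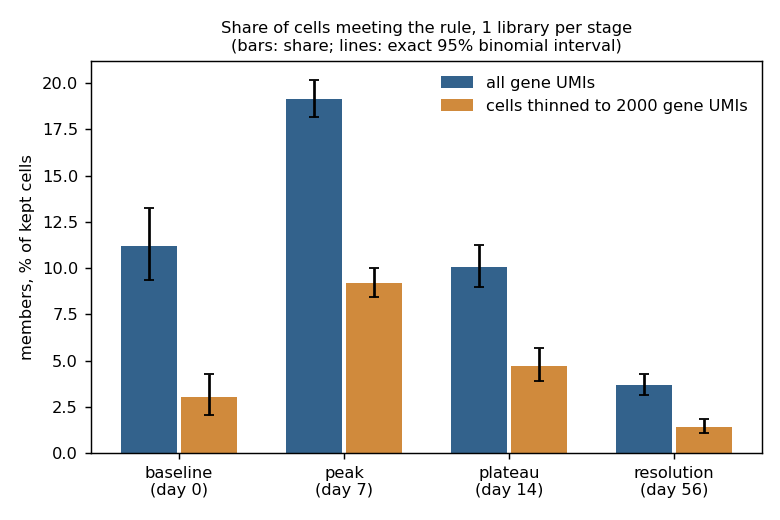
Members as a percent of kept cells in each library (y axis) at the 4 stages (x axis), on all gene UMIs (blue) and after thinning to 2000 gene UMIs (orange); lines are exact 95% binomial intervals. The peak library is highest on both counts, at 19.2% and 9.19%, and resolution lowest, at 3.69% and 1.44%.

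Several criteria had cells close on both sides. At exactly 1 UMI of Aif1 there were 20, 127, 64 and 74 members, and 21, 132, 56 and 102 cells failed by having none. At 5 UMIs of Apoe there were 3, 22, 8 and 11 members, against 3, 35, 4 and 8 cells with 4. For class II RNA between 0.3 and 0.35% there were 16, 48, 14 and 3 members, against 8, 59, 10 and 6 cells between 0.25 and 0.3%. The members are thus a range, with cells on both sides of its limits.

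The genes that chose the members are given as a description. H2-Aa stood at 1425 CPM at baseline, 2959.7 at peak, 3434 at plateau and 4760.4 at resolution. Cd74 stood at 6745 CPM at baseline, 9781 at peak, 11893 at plateau and 19449.6 at resolution. In CPM, both were lowest at baseline and highest at resolution. In UMIs, the median member held 20.5, 22, 21 and 22 of H2-Aa and 101.5, 82, 81 and 88 of Cd74, without such a rise. In all other kept cells H2-Aa stood at 384, 593, 324 and 1743 CPM and Cd74 at 2057, 2227, 1361 and 9129, also highest at resolution. Ccr2 stood at 837 CPM at baseline, 1169.7 at peak, 1205 at plateau and 1029 at resolution, and Apoe at 2201 CPM at baseline, 3861 at peak, 5862 at plateau and 2939.9 at resolution. Ms4a4c, a membrane protein gene of monocytes that marks the label but was not in the rule, stood at 386 CPM at baseline, 832 at peak, 399.7 at plateau and 266 at resolution in members. In all other kept cells it stood at 205, 439, 103 and 57.4 CPM, lower in each of the 4 libraries. Cells that failed only the class II criterion held 311, 689, 244 and 270 CPM. Cells that failed only on Apoe held 344, 843, 391 and 73.4 CPM, so Ms4a4c was not particular to members.

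Markers of other cell types stood at different levels in members. The basophil and mast cell list summed to 0 to 4.34 CPM, the T and NK cell list to 0.402 to 13.3 CPM, the endothelial list to 3.22 to 19.4 CPM and the erythroid list to 0 to 1.54 CPM over the 4 libraries. The B cell list summed to 176, 79.0, 109 and 225 CPM in members, above the 143, 45.3, 32.9 and 86.6 CPM of the other cells in each library. Of its genes, Cd79a and Pax5 were at 0 in each library, while Ighm reached 157 CPM at baseline, 64.3 at peak, 87.2 at plateau and 193 at resolution. Of 15 dendritic cell genes outside the rule, 2 to 4 were found in 10% or more of members, and Xcr1 and Clec9a, of type 1 dendritic cells, were at 0 at baseline and plateau. Fibroblast genes summed to 517, 431, 56.7 and 19.4 CPM, against 1767, 3647, 5724 and 2460.4 CPM in the other cells. Osteoclast genes summed to 29.2, 426, 3089.9 and 615 CPM, against 85.3, 6336, 23235 and 887. The neutrophil list and the osteoclast list were thus lower in members than around them in each library but 1, the exception being neutrophil genes at resolution (4761 CPM against 1503), where single members held nearly all of their UMIs.

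Surface class II protein went with class II RNA in single members, although the sort was labelled MHCII-. The median member carried 38.5, 60, 81 and 48.5 UMIs of the I-A/I-E antibody from baseline to resolution. Neighbours that failed only the class II criterion carried 3, 7, 5 and 2. At least 10 UMIs were found on 80.8% of members at baseline, 88.9% at peak, 87.7% at plateau and 72.9% at resolution. The same share in T, NK, basophil or mast cells, which should lack the protein, was 7.69%, 32.3%, 0% and 10.0% of 13, 62, 2 and 20 cells, with median antibody depths of 435, 815, 546.5 and 273.5 UMIs against 1630, 870, 764 and 474 in members. Over the members of a library, the percent of RNA from class II genes and the percent of antibody UMIs from I-A/I-E correlated with Pearson r of 0.66, 0.67, 0.72 and 0.80 and Spearman rho of 0.71, 0.78, 0.69 and 0.85 (n = 120, 1138, 285 and 170 cells that share a library). Class II RNA was part of the rule, so these values are a description.

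Other sorting markers were also present as RNA. Fcgr1, which encodes CD64, stood at 74.2 CPM at baseline, 408 at peak, 319 at plateau and 47.2 at resolution in members. Ly6c2, which encodes a Ly6C protein, stood at 561 CPM at baseline, 550.0 at peak, 222 at plateau and 344 at resolution. Cd177, a neutrophil surface gene, stood at 128 CPM at baseline, 25.5 at peak, 16.9 at plateau and 30.5 at resolution. Itgam, which encodes CD11b, stood at 242 CPM at baseline, 352 at peak, 366 at plateau and 204 at resolution, and Ptprc, which encodes CD45, at 742 CPM at baseline, 596 at peak, 512 at plateau and 655 at resolution. Ly6g had 5 UMIs at baseline and 0 in the other libraries. The Ly6C antibody made up 2634 of 10000 antibody UMIs of members at baseline, and 251, 186 and 165 at peak, plateau and resolution. These shares depend on the other antibodies of each library and are given for members alone. A difference particular to members is therefore not shown.

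Members were mostly of donor origin. A cell with at least 5 UMIs over both CD45 antibodies was called donor at a CD45.1 share of 0.8 or more, recipient at 0.2 or less and mixed between. Of assigned members, 93.1% were donor at baseline (108 of 116 cells, interval 86.9 to 97.0), 97.8% at peak (1112 of 1137, 96.8 to 98.6), 97.9% at plateau (279 of 285, 95.5 to 99.2) and 86.1% at resolution (105 of 122, 78.6 to 91.7). Recipient members numbered 0, 4, 1 and 2. All other kept cells were donor in 73.0% (69.8 to 76.0), 93.4% (92.7 to 94.1), 89.2% (87.8 to 90.5) and 70.9% (69.3 to 72.5), and the intervals did not overlap those of members in any library. Seen from the other side, members were 15.1%, 20.6%, 12.3% and 4.70% of donor cells. No member was among the 168 recipient cells at baseline, where 3 cells would be 1.79%, the limit that a count of 0 allows. Of recipient cells at peak, plateau and resolution, members made up 2.27%, 0.599% and 0.364%. Against neighbours that failed only the class II criterion, whose donor shares were 88.2% (81.8 to 93.0), 96.7% (95.5 to 97.7), 96.7% (93.4 to 98.7) and 76.8% (65.1 to 86.1), the intervals overlapped in each library. None of these differences between cell groups was tested. Members with 10 or more UMIs of both antibodies, which can be doublets, were 9.17%, 2.64%, 1.40% and 1.18%, against 3.68%, 2.02%, 1.65% and 0.450% of the other cells. Their part in the mixed calls was not tested.

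**Figure D2:**
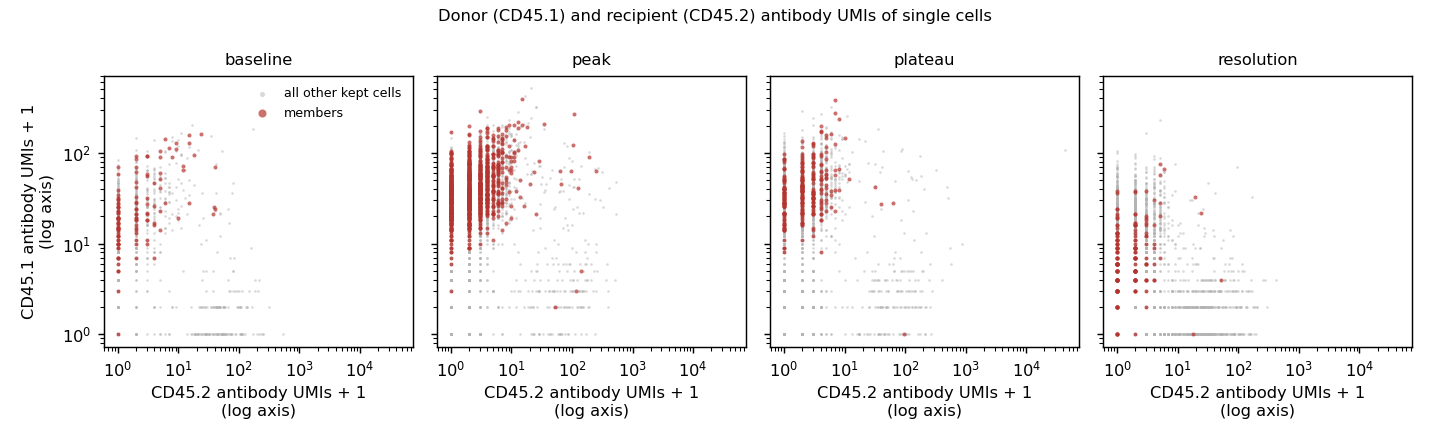
UMIs of the recipient's CD45.2 antibody (x axis, plus 1, log scale) and of the donor's CD45.1 antibody (y axis, plus 1, log scale) in single cells of each library; members in red over all other kept cells in grey. Members lie almost all at the upper left, with 0, 4, 1 and 2 called recipient from baseline to resolution, and at resolution they sit lower, with a median of 6 CD45.1 UMIs.

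The nearest cells outside the rule fail 1 criterion and meet the rest. Cells failing only on class II RNA numbered 153, 1095, 215 and 104, and cells failing only on Apoe 28, 189, 49 and 259. Cells failing only on Aif1 numbered 21, 132, 56 and 102 and were not compared here. Groups under 20 cells in 2 or more libraries were not tested (Ccr2 at 0 in 14, 15, 15 and 29 cells, and Cxcl2 high in 0, 115, 64 and 10). RNA differences from these neighbours follow from the choice of cells and are described without a test.

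Against cells with low class II RNA, members also held more of the rest of the class II pathway. H2-Eb1 stood at 555 CPM at baseline, 1433 at peak, 1504 at plateau and 2188 at resolution in members and at 24.5, 29.0, 25.6 and 10.1 CPM in these neighbours. H2-DMb1 stood at 389 CPM at baseline, 706 at peak, 624 at plateau and 797 at resolution, against 107, 114, 84.1 and 105 CPM. H2-DMa stood at 314 CPM at baseline, 486 at peak, 452 at plateau and 495 at resolution, against 194, 206, 136 and 156 CPM. All 3 were higher in members in each of the 4 libraries. Tmem176a and Tmem176b, a pair of ion channel genes of antigen-presenting cells, were higher in each library too, with median log2 ratios of 1.14 and 1.20. Smaller differences in the same direction in 4 of 4 libraries were seen for AW112010 (0.85), Tspan13 (0.65), Olfm1 (0.73), the inhibitory Fc receptor gene Fcgr2b (0.43) and the lysosomal phospholipase gene Plbd1 (0.43). Lower in members in each library were the tetraspanin gene Cd63 (median log2 ratio -0.87), the matrix gene Fn1 (-0.58), the protease inhibitor gene Slpi (-0.90) and the clotting factor gene F13a1 (-0.40).

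Against cells with low Apoe, which this rule also places beside the members, the leading genes were others. Chil3, a chitinase-like gene of classical monocytes, stood at 328 CPM at baseline, 616 at peak, 211 at plateau and 220.2 at resolution in members and at 91.9, 257, 57.7 and 68.3 CPM in these neighbours. Pla2g7, which encodes a secreted phospholipase, and Thbs1, which encodes thrombospondin, were higher in members in each library, with median log2 ratios of 1.22 and 1.76. Apoc2, the neighbour of Apoe in the genome and a lipoprotein gene, had a median of 1.52. Lower in each library were Clec4b1 (-1.17), a C-type lectin gene, the tubulin gene Tubb5 (-0.96) and Crip1 (-1.10). The 15 dendritic cell genes outside the rule summed to 1117, 436, 240 and 1982 CPM in these neighbours, against 134, 109, 153 and 488 CPM in members.

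No surface protein outside class II passed the test between members and either neighbour group. The test was edgeR's quasi-likelihood test on antibody UMIs summed per library and group, with the library as block and Benjamini-Hochberg adjustment at 0.05. Against cells with low class II RNA, 0 of 86 antibodies passed in either direction (0%, edgeR), 4 were higher and 0 lower at an unadjusted p under 0.05, and DESeq2 called 1 higher. That one was CD11c, an integrin of dendritic cells and many tissue macrophages, at 4.25, 12.1, 29.9 and 29.7 per 10000 antibody UMIs in members against 2.49, 8.64, 16.7 and 12.1. It was higher in 4 of 4 libraries, with a log2 ratio of 0.87 (SE 0.186) and an edgeR adjusted p of 0.205. The CD45.1 antibody was higher in 4 of 4 libraries (log2 ratio 0.43, SE 0.119, edgeR adjusted p = 0.293). CD11b differed by 0.10 (SE 0.0767, edgeR adjusted p = 0.571) and Ly6G by -0.01 (SE 0.0965, edgeR adjusted p = 0.952). Ly6C was lower in 3 of 4 libraries (log2 ratio -0.47, SE 0.229, edgeR adjusted p = 0.457), and with the plateau library left out it passed (-0.85, edgeR adjusted p = 0.00707). CD45.2 was lower in 4 of 4 (-1.61, SE 1.11, edgeR adjusted p = 0.571), but the plateau neighbours held 45466 CD45.2 UMIs, of which 1356 remained after 1 of 215 cells, with an outlying antibody total, was left out. I-A/I-E, whose genes the rule used, is a description, at 250.4, 796, 1046 and 1961 per 10000 in members against 36.2, 128, 131 and 329. Such shares depend on the other antibodies of each library, and the I-A/I-E UMIs of the median member were 38.5, 60, 81 and 48.5.

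Against cells with low Apoe, a comparison added after the data had been seen, 0 of 84 antibodies passed (0%, edgeR), 0 were higher and 4 lower at an unadjusted p under 0.05, and DESeq2 called 3 lower, CD11c, CD127 and CD163. CD11c stood at 4.25, 12.1, 29.9 and 29.7 per 10000 in members and at 108, 32.1, 33.4 and 249.7 in these neighbours, lower in members in 4 of 4 libraries (log2 ratio -2.26, SE 0.633, edgeR adjusted p = 0.0976). CD163, a haemoglobin scavenger receptor, was also lower in 4 of 4 (-1.67, SE 0.509, edgeR adjusted p = 0.122). As a share of antibody UMIs, I-A/I-E was lower in members than in these neighbours in 4 of 4 libraries (250.4, 796, 1046 and 1961 against 1823, 1183, 1313 and 2210.4). In UMIs, the median member held 38.5, 60, 81 and 48.5 and the median neighbour 46.5, 44, 38 and 83, so members were higher at peak and plateau. Median antibody depths were 1630, 870, 764 and 474 UMIs in members and 616, 655, 444 and 463 in these neighbours. CD11c in members thus lay between the levels of both neighbour groups in each of the 4 libraries. Cells with low Apoe also held more RNA of dendritic cell genes than members in each library. The part of dendritic cells in these antibody differences was not tested.

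**Figure D3:**
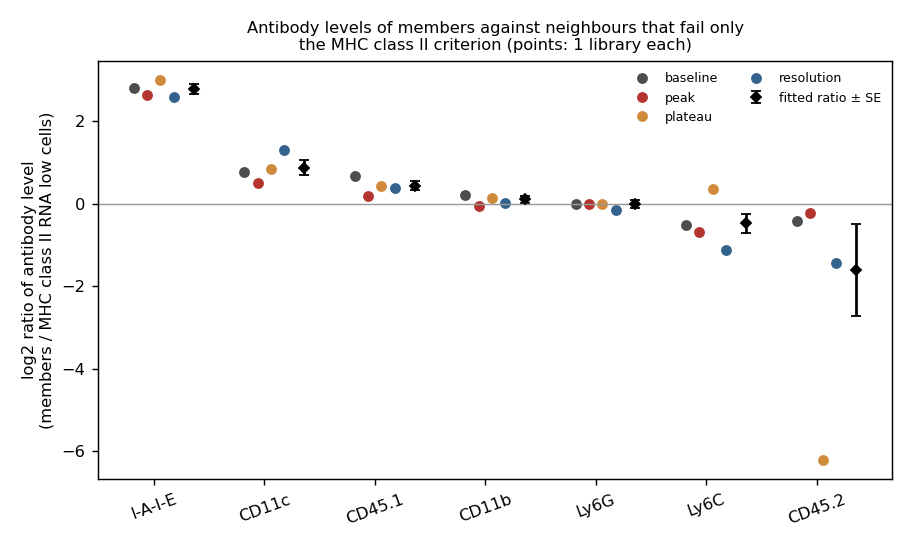
Log2 ratio of the antibody level in members to that in neighbours failing only the class II criterion (y axis) for 7 antibodies (x axis); coloured points are the 4 libraries, black diamonds the fitted ratio with its SE. I-A/I-E is far above 0 in all 4 libraries, CD11c and CD45.1 are above 0 in all 4, and the plateau point of CD45.2 lies far below the others.

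The stages were compared by the summed RNA of members, in CPM of each library's members. A gene counted as different at 2-fold or more, if it reached 50 CPM in the higher library and 30 UMIs over both, with the genes of the rule left out. Ratios had 0.5 counts added. The 4 comparisons share libraries, so a gene high at peak is set against 2 neighbours in time with the same peak values, and no agreement between them is read.

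At peak, members held more RNA of interferon response, glycolysis, complement and Ms4a genes than at baseline, and less of nonclassical monocyte genes. Of 2909 genes tested, 184 were at least 2-fold higher at peak (6.33%) and 188 at least 2-fold lower (6.46%), with a median log2 ratio over all of 0.02. The highest ratio was that of Spp1, which encodes osteopontin, a secreted matrix and adhesion protein. It stood at 2.56 CPM at baseline, 623 at peak, 2129 at plateau and 26.8 at resolution, so peak was 222-fold (104 to 751) above baseline. All other kept cells stood at 24, 2404, 3379 and 419 CPM, above members at each stage. Ifitm1, an interferon-induced membrane protein gene, was 53.4-fold (36.6 to 85.2) higher, Timp1, an inhibitor of matrix proteases, 51.9-fold (22.8 to 215), and Sdc4, a heparan sulfate proteoglycan gene, 37.1-fold (19.2 to 98.9). F11r, Dmkn, Dab2 and Ccl7 were 22.1-fold to 45-fold higher. Prg4 and Ctsk were also among the 10 highest, but 1 peak member held 94.6% of the UMIs of Prg4, which encodes lubricin of synovial lining fibroblasts, and 1 held 39.6% of those of Ctsk.

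Type I interferon response genes were among those that stood higher. Of 19 tested, 9 were at least 2-fold higher, 18 were above 0, and the median log2 ratio was 0.97. Isg15, a ubiquitin-like modifier, stood at 204 CPM at baseline, 955 at peak, 277 at plateau and 129 at resolution. Cxcl10, a chemokine for T cells, stood at 20 CPM at baseline, 359 at peak, 105 at plateau and 18.5 at resolution. In the other kept cells Isg15 stood at 105, 604, 127 and 32.6 CPM, so peak was the highest library in both. Of 14 genes of hypoxia and glycolysis, 6 were at least 2-fold higher and 13 above 0 (median 0.88), among them Hif1a, the oxygen-regulated transcription factor, at 118 CPM at baseline, 457 at peak, 453 at plateau and 106 at resolution. Of 11 complement genes, 7 were higher and 1 lower (median 1.48), with the C1q chains C1qa, C1qb and C1qc and the anaphylatoxin receptors C3ar1 and C5ar1 among the higher and C3 the lower.

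The antigen presentation genes outside the rule were all above 0. Of 7 tested, 3 were at least 2-fold higher (median 0.88): Lgmn and Ifi30, which process antigen in endosomes, and H2-Eb1. Of 7 Ms4a genes, 5 were higher (median 1.11), with Ms4a7, a macrophage member, 10.1-fold (6.66 to 17.0) and Ms4a4c 2.15-fold (2.00 to 2.32). Of 6 Fc receptor genes, 3 were higher and 1 lower, and the high-affinity receptor Fcgr1 was 5.48-fold (4.66 to 6.53) higher. Il1b, the inflammatory cytokine gene, stood at 1415 CPM at baseline, 3664 at peak, 3502 at plateau and 1729 at resolution, and Il1rn, which encodes its natural antagonist, at 13.8 CPM at baseline, 87.1 at peak, 118 at plateau and 12.0 at resolution.

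Nonclassical monocyte genes were lower without exception among those tested. Of 10, all 10 were at least 2-fold lower at peak (median -1.83), against 6.46% of all genes. Ace, which encodes angiotensin-converting enzyme, stood at 85.4 CPM at baseline, 15.7 at peak, 14.5 at plateau and 73.1 at resolution, and Spn, which encodes CD43, at 84.4 CPM at baseline, 10.0 at peak, 12.1 at plateau and 65.7 at resolution. In the other kept cells Ace stood at 86.9, 10.7, 6.53 and 56.2 CPM, lowest at the same stages. Neutrophil genes were also lower, 6 of 6 with a median of -7.33, led by Camp and Ngp of neutrophil granules. At baseline S100a8 stood at 4901 CPM in members and 13819.9 in the other cells, and the 3 highest of 120 members held 77.2% of its UMIs, with 83.5% for Camp, 89.8% for Ngp and 80.0% for S100a9, each by its own 3 highest. Among members chosen after thinning, an alternative added after the data had been seen, S100a9 turned to a log2 ratio of 0.88 and 0 genes of the list reached the level for a call. The part of RNA from neutrophils in these values was not tested. With TMM scaling the split was 259 higher and 147 lower, and the median of all genes moved from 0.02 to 0.18.

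At plateau, interferon genes were lower and lipid and C1q genes higher than at peak. Of 2869 genes tested, 49 were at least 2-fold higher (1.71%) and 40 lower (1.39%), with a median log2 ratio of 0.11. With TMM scaling there were 24 higher and 81 lower, and the median moved to -0.15. Of 18 interferon response genes, 10 were at least 2-fold lower and 0 above 0 (median -1.04), and Ifit2, Ifit1 and Rsad2 were 5.27-fold (4.06 to 7.09), 4.06-fold (3.17 to 5.39) and 3.84-fold (3.14 to 4.80) lower. Egln1, which encodes an oxygen sensor, and the histone gene Hist1h1e were also among the 10 lowest, at 3.39-fold (2.54 to 4.72) and 5.82-fold (4.11 to 8.81) lower.

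Of 11 classical monocyte genes, 5 were lower and 1 higher at plateau (median -0.72). Ly6c2 was 2.48-fold (2.27 to 2.71) lower, Chil3 2.91-fold (2.66 to 3.19) and Ms4a4c 2.08-fold (1.95 to 2.22), while Fn1, which encodes fibronectin, stood at 838 CPM at baseline, 832 at peak, 1760.3 at plateau and 609 at resolution. Of 9 tissue macrophage genes, 4 were higher and 0 lower (median 0.85): the 3 C1q chains and Trem2, a lipid receptor of macrophages. C1qa stood at 8.70 CPM at baseline, 188 at peak, 501 at plateau and 189 at resolution in members and at 790.0, 124, 323 and 1169 CPM in the other cells. Of 16 lipid and lysosome genes, 5 were higher and 0 lower (median 0.80), with Cd9, Cd63, Spp1, Abca1 and Trem2. Arg1, an arginine-degrading enzyme gene, stood at 0 CPM at baseline, 45.8 at peak, 191 at plateau and 112 at resolution. With TMM scaling 2 of the 9 macrophage genes and 4 of the 16 lipid genes passed 2-fold. The class II pathway stayed level, with 0 of 7 past 2-fold in either direction.

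The 5 highest ratios at plateau, Acp5, Mmp9, Arsb, Atp6v0d2 and Ctsk, belong mostly to osteoclasts, and 1 member held 36.7 to 45.9% and the 3 highest members of each gene 81.2 to 89.6% of its UMIs. Without the UMIs of those 3 the plateau level was 51.5 CPM for Mmp9 (peak 53.6), 198 for Ctsk (peak 241) and 8.04 for Atp6v0d2 (peak 11.4), below peak for each of these, while Acp5 (175, peak 107) and Arsb (10.1, peak 7.77) stayed above it. All other kept cells stood at 12493 CPM for Ctsk, against 1569 in members. With the 6% highest doublet scores left out, the median of the osteoclast list fell from 2.92 to 1.44, with 2 of 3 genes past 2-fold. The part of RNA from osteoclasts or of doublets in these values was not tested.

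At resolution, members held less of the genes that led at peak and plateau, and more of nonclassical monocyte genes than at plateau. Of 3006 genes tested, 150 were at least 2-fold higher (4.99%) and 218 lower (7.25%), with a median of -0.16. Spp1 was 78.0-fold (55.2 to 119) lower, Timp1 57.6-fold (19.8 to 596) and Ifitm1 45.3-fold (24.3 to 112). Ms4a7 and Basp1 were 13-fold (8.43 to 22.2) and 14.1-fold (9.21 to 24.3) lower. Of 14 hypoxia and glycolysis genes 9 were lower and 0 higher (median -1.03). Of 10 complement genes 6 were lower and 0 higher (median -1.39), C5ar1 by 8.30-fold (6.27 to 11.5). Of 12 chemokine and colony-stimulating factor receptor genes 4 were lower and 0 higher, Ccr1 by 8.38-fold (6.40 to 11.4). Of 9 inflammatory cytokine genes 4 were lower (Il1rn, Ptgs2, Il18 and Il1b) and 1 higher (Ccl3).

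Of 11 nonclassical monocyte genes, 9 were at least 2-fold higher at resolution and 11 above 0 (median 1.55). Eno3 was 11.3-fold (6.07 to 24.8) higher, and Ear2, an eosinophil-type ribonuclease gene of these monocytes, stood at 103 CPM at baseline, 29.1 at peak, 21.7 at plateau and 186 at resolution. Among members chosen after thinning, 3 genes of the list could be tested and 1 was higher (median 0.29). Several of the highest ratios rested on single cells. At resolution 1 member held 99.7 to 99.9% of the UMIs of each of Ngp, Camp, S100a9 and S100a8, 100% of Mucl1, 94.0% of Lyve1, 79.6% of Ccl17 and 58.8% of Retnla. Mgl2, a lectin gene of macrophages and dendritic cells, was spread wider, with 1 member holding 12.0%, and stood at 4.60 CPM at baseline, 1.92 at peak, 1.61 at plateau and 192 at resolution in members and at 39.0, 4.15, 1.59 and 326 CPM in the other cells.

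Fewer genes differed between resolution and baseline than between resolution and plateau. Of 2816 genes tested, 60 were at least 2-fold higher at resolution (2.13%) and 38 lower (1.35%), with a median of -0.05. Among members chosen after thinning, where 812 genes could be tested, 2 of the 60 and 0 of the 38 were called again. The class II pathway was above 0 in 7 of 7 genes, and 2 passed 2-fold (median 0.66), H2-DMb1 and H2-Eb1, the latter by 3.94-fold (3.67 to 4.24). Among members chosen after thinning, 0 of 6 passed (median 0.29). The interferon, nonclassical monocyte and glycolysis lists had 0 genes past 2-fold of 12, 11 and 11. Of 12 tissue macrophage genes 7 were higher and 1 lower (median 2.21), but 1 resolution member held 68.6% of the UMIs of C1qa, and without the 6% highest doublet scores 3 of 8 were higher (median 0.52). Ccl17 was at least 130.2-fold higher and Arg1 at least 72.9-fold, both with 0 UMIs at baseline, against the limit of 3 counts in that library, and 1 member held 79.6% and 65.3% of their UMIs. The lowest ratios were those of collagen and matrix genes (Clec3b, Dcn, Col3a1, Sparc and Col1a2), of which 1 baseline member held 51.5 to 83.6%.

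**Figure D4:**
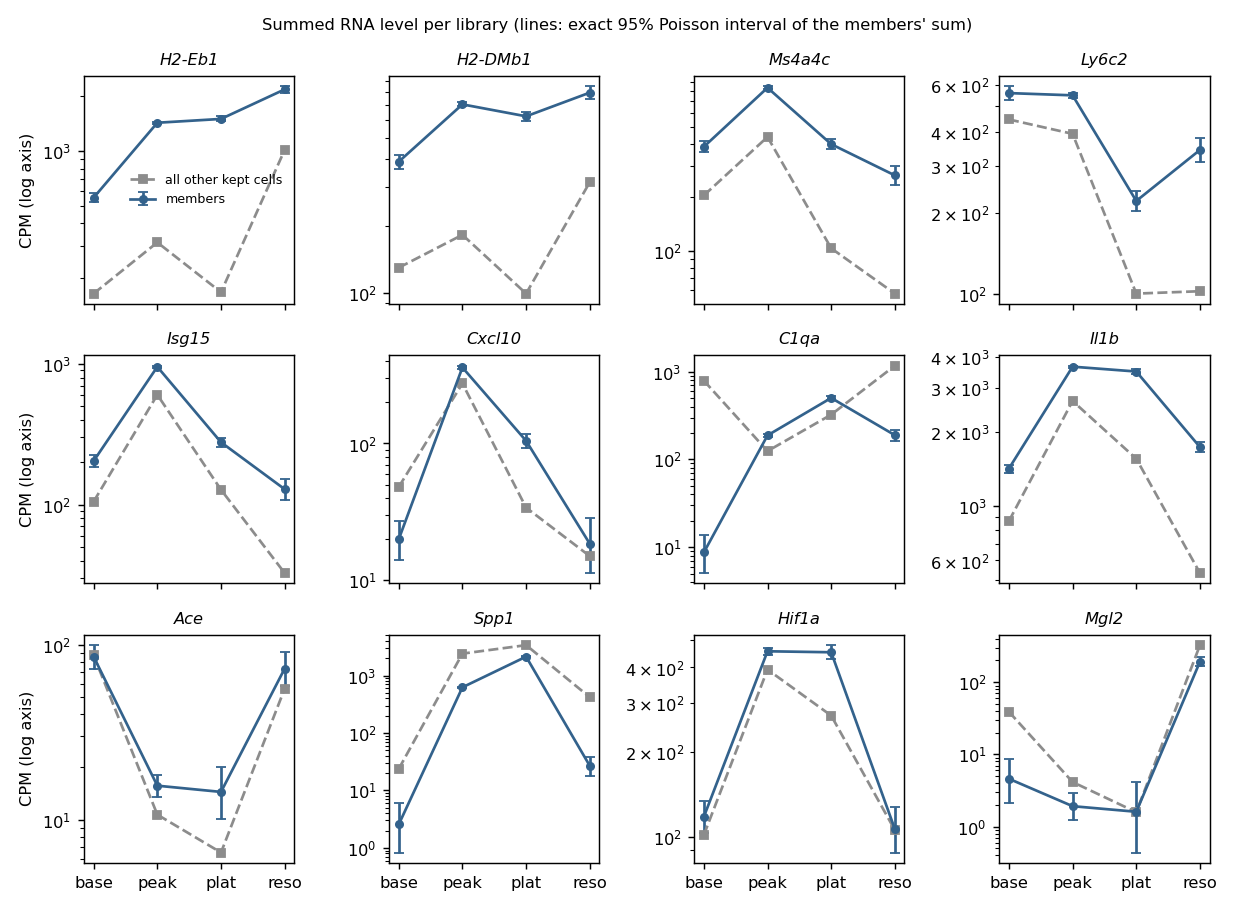
Summed level of 12 genes in CPM (y axis, log scale) at baseline, peak, plateau and resolution (x axis), in members (blue, with exact 95% Poisson intervals) and in all other kept cells (grey, dashed). H2-Eb1 is higher in members in each library, Isg15 and Cxcl10 are highest at peak, Ace is lowest at peak and plateau, and Mgl2 is highest at resolution in both.

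Members were not uniform within a library. After thinning to 2000 gene UMIs, the classical monocyte genes outside the rule took a median of 2.45% of a member's UMIs at baseline (quartiles 2.00 and 3.06), 1.90% at peak (1.35 and 2.50), 1.78% at plateau (1.30 and 2.30) and 1.80% at resolution (1.20 and 2.56). In other kept cells the medians were 1.45, 1.80, 1.45 and 0.70%. The tissue macrophage genes took 0.10%, 0.15%, 0.25% and 0.15% of a member's UMIs, against 0.10%, 0.10%, 0.15% and 0.55% in other kept cells, and the highest 5% of plateau members held 1.65% or more. Monocyte and macrophage shares had a Spearman rho of -0.04, -0.09, -0.09 and 0.09 over single members (n = 120, 1129, 282 and 168 cells). At 2000 gene UMIs such macrophage shares rest on a few UMIs per member, and counting error of this size draws rho towards 0. These values therefore cannot show whether the shares were related.

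Single genes were found in only part of the members after the same thinning. Ly6c2 was found in more members without thinning in each library, so a member in which it was not found could still hold its RNA. At this depth Ly6c2 was found in 52.5% of members at baseline, 46.2% at peak, 23.4% at plateau and 32.1% at resolution (unthinned 82.5, 75.7, 46.7 and 50%). T, NK, basophil or mast cells at the same depth held it in 16.7, 8.47, 0 and 16.7% of 12, 59, 1 and 12 cells. Members with C1q RNA and no Ly6c2 found were 4.17%, 12.8%, 29.1% and 14.9%, and members with both were 1.67%, 10.3%, 3.55% and 4.76%. Neither was found in 40.9 to 53.0%. Whether both were found together less often than by chance was not tested, so these groups are not shown to be separate kinds of member. Il1b was found in 73.3%, 88.5%, 83.0% and 67.3% of members, against 44.9%, 68.3%, 46.8% and 25.8% of other kept cells and 0, 35.6, 0 and 0% of the T, NK, basophil or mast cells. Plateau was the stage at which C1q without Ly6c2 was more frequent than Ly6c2 without C1q (29.1 against 19.9%), and the exact intervals of these shares met (23.8 to 34.8 against 15.4 to 25).

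**Figure D5:**
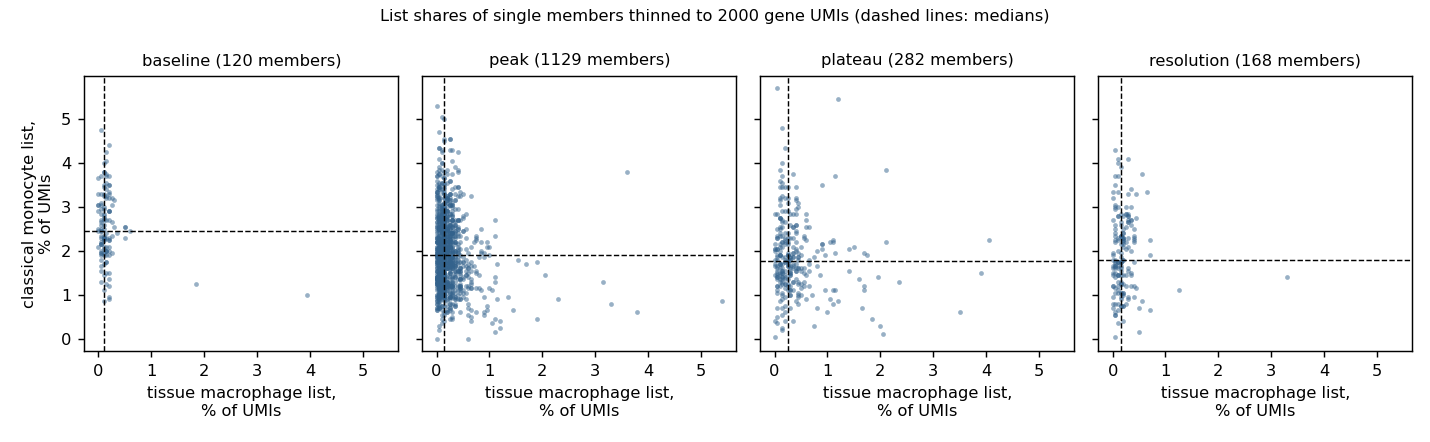
Percent of a member's UMIs from tissue macrophage genes (x axis) and from classical monocyte genes outside the rule (y axis), 1 point per member after thinning to 2000 gene UMIs, 1 panel per library; dashed lines are medians. Most members lie at low macrophage and varied monocyte shares, and the plateau panel has the most spread along the x axis, with a median of 0.25%.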

How the data were processed

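The deposited files hold UMI counts as the authors left them, unnormalized, over 32285 genes plus 92 antibody tags for every cell barcode. Cell Ranger 6.1.2, the mm10 build and Seurat 4.4.0 appear in the submitters' processing notes with no step named. Libraries followed a 10x Genomics 3' protocol, per the labels' protocols. How reads of near-identical or overlapping genes were counted was not given in the sources used here.

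A cell was kept with 300 genes or more and mitochondrial UMIs of 10% or less, and no doublets were removed. Scrublet (scanpy 1.11.5) called 0 to 5 cells per library, which means that it did not work as a caller, so leaving out the 6% highest scores served as an alternative. Of members, 15.8% at baseline, 10.3% at peak, 4.21% at plateau and 10.0% at resolution were among those 6% of their library. The part of doublets among them was not tested. Members, 27 gene lists and neighbours were chosen with earlier results of these data known. Member UMIs were summed per library as CPM, and ratios had 0.5 counts added. Intervals are exact at 95%, and a count of 0 was given a limit of 3 counts. Antibodies were tested with edgeR 4.0.16 (DESeq2 1.42.0 as an alternative). Both procedures were run on simulated data. Simulated antibody counts had a smaller spread than the real ones, whose fitted dispersions were 0.0722 (low class II RNA) and 0.145 (low Apoe). Those runs therefore do not show the power of the antibody test on these data. Named genes were the 10 highest and 10 lowest ratios of each comparison, the largest change and the highest level of each list, and the markers of the label and sort. Mitochondrial, ribosomal, haemoglobin, sex-linked, immunoglobulin, receptor and unnamed genes were left out of the first, and other genes given with values were picked from the lists after their values were seen. A few genes of the lists, counted within them, are not reported here by name.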

Additional observations from a re-analysis of the deposited data

How the results depend on the processing

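Values were recomputed under other settings, 5 of them added after the data had been seen (neighbours low in Apoe, outlying antibody barcodes left out, genes found in 10% of members, members chosen after thinning, and members with both CD45 antibodies left out). Of 148 such recomputed shares and counts, 112 stayed close to the reported value (within its interval, or 1.5 times for a count) and 36 moved. Member shares moved to 7.94%, 16.2% and 8.77% at baseline, peak and plateau with class II RNA at 0.5% or more. With Apoe at 10 UMIs or more they moved to 17.3% at peak and 2.67% at resolution, and without the Flt3 criterion to 20.2% at peak. Thinning before the rule gave 3.04%, 9.19%, 4.74% and 1.44%. Donor shares with limits of 0.9 and 0.1 were 81.0%, 90.6%, 90.9% and 58.2%. With a minimum of 20 CPM, genes higher and lower were 291 and 387 for peak against baseline, 125 and 65 for plateau against peak, 291 and 403 for resolution against plateau, and 162 and 98 for resolution against baseline. With members chosen after thinning they were 398 and 376, 184 and 85, 73 higher, and 30 and 16, and of the reported genes 125 and 81, 24 and 29, 40 and 81, and 2 and 0 were called again. TMM scaling gave 24 and 81 for plateau against peak. For resolution against baseline, 24 were lower without the 6% highest Scrublet scores and 23 with equal weight per member. DESeq2 called 1 antibody higher against cells with low class II RNA and 3 lower against cells with low Apoe.

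Single genes and antibodies gave 954 further recomputed ratios. Of these, 734 stayed the same, 214 left the interval of the reported ratio, 5 turned direction and 1 came to pass. Some single genes turned direction: Dcn at peak against baseline (log2 ratio 0.63 without the highest Scrublet scores, 0.17 with thinned members), S100a9 at peak against baseline (0.88) and C1qa at resolution against baseline (-2.03), the latter pair with thinned members. The cause was not tested. With a library left out in turn, antibodies lower against cells with low class II RNA ranged from 0 to 1, the 1 being Ly6C without plateau, and the CD11b ratio ranged from -0.0191 to 0.0535. No paired analysis was possible between stages because each stage has 1 library. The tests between cell groups were paired by the library as block, and without it 0 antibodies passed against either neighbour group. The number of members limits the baseline and resolution values (120 and 170), and depth also limits those of resolution, with a median of 5110 gene UMIs per member.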
